A study of Mus musculus with 6 samples.

Results

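The genes described here are 8 complement genes that fibroblasts are known to transcribe: C1ra, C1s1, C4b, C2, C3, Cfb, Cfd and Serping1. They were chosen by name, as components and regulators of the complement cascade, with the C1q chains of macrophages left out. The rule uses no measured value, but the members were chosen with earlier results of these data known. All 8 were found among the 57180 gene identifiers of the count table, and all 8 passed the filter on low counts that left 18143 genes. RNA was sequenced from mouse fibroblasts taken from lung, heart (cardiac) and tail tip, grown in DMEM with 10% serum. Each origin was infected for 48 h with 1 of 2 adenoviruses, a control that carries green fluorescent protein (Ad-GFP) or a virus for the recombinase Cre (Ad-Cre, labelled as GATA4 KO), with 1 library for each of the 6 combinations. The labels give all 6 libraries the genotype WT and name no floxed allele, strain, age, sex or number of animals, and they set the libraries of an origin apart by virus only.

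Complement is a cascade of blood and tissue proteases. In its classical arm the proteases C1r and C1s, bound to C1q, cleave C4 and then C2, and the C4 and C2 fragments together form an enzyme that cleaves C3. In its alternative arm, factor B binds to deposited C3b and is cut by factor D, which gives a second enzyme that cleaves C3 and so amplifies the response. C1 inhibitor, the product of Serping1, inactivates C1r and C1s. The liver makes most of the circulating proteins, and fibroblasts and macrophages add to them locally, with transcription that is known to answer to interferons, interleukins and other inflammatory signals.

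Total counts were between 26170316 and 33779069 reads per library. A gene with 0 reads at these depths can have up to 3 counts, or 0.0905 to 0.117 CPM (counts per megaread of library, scaled with TMM factors). The cardiac libraries held reads of 22665 to 23120 genes, against 25234 to 27267 in the others. Gata4, the targeted gene, was not lower in any library labelled Ad-Cre: its level was 14.7 and 19.2 CPM in lung, 146 and 149 CPM in cardiac and 0.0314 and 0.0604 CPM in tail tip (Ad-GFP before Ad-Cre). The counts do not show which exons were read, so they do not check a deletion of part of the gene. All 8 fibroblast markers (such as Col1a1 and Dcn) were over the floor of 3 counts in all 6 libraries, with summed levels of 7720 to 23100 CPM. The 14 macrophage markers summed to 31.0 and 22.2 CPM in lung, 1060 and 639 CPM in cardiac and 5410 and 4580 CPM in tail tip. The sum was mostly Lyz2 in cardiac (815 and 480 CPM) and tail tip (3950 and 3380 CPM). In lung it was mostly Cd14 (12 and 8.14 CPM) and Mrc1 (10.6 and 5.41 CPM). Adgre1, C1qa, C1qb and C1qc had no read in the lung library labelled Ad-Cre, and C1qa and C1qb none in the lung Ad-GFP library.

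These are bulk libraries, in which fewer cells of a type and less RNA per cell cannot be told apart, and RNA of fibroblasts and of macrophages is summed. The label of the set, complement made by fibroblasts, therefore could not be checked cell by cell. The values that bear on it are given with each gene.

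The promoters of C3, C1s1 and Cfd are shown because these genes differed between origins in opposite directions, with C3 and C1s1 highest in tail tip and Cfd lowest there. Of the 8 genes, 4 had an entry in the RefSeq promoter table used (GRCm38.p6): C3, C1s1, Cfd and C1ra. Each line gives the 250 bases upstream of the annotated start, 5′ to 3′ on the gene's strand, with matches to the motifs searched in capitals.

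C3, chr17:57228137-57228386, minus strand: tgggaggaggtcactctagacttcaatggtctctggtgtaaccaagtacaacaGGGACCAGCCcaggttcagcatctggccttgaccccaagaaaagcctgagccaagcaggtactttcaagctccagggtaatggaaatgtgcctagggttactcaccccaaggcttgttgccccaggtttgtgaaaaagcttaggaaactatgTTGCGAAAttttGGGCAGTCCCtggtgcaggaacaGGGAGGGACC

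C1s1, chr6:124542360-124542609, minus strand: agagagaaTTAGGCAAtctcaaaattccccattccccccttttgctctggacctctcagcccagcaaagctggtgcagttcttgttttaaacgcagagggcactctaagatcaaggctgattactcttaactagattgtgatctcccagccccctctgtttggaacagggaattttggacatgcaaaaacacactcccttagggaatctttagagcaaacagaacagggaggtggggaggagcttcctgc

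Cfd, chr10:79890603-79890852, plus strand: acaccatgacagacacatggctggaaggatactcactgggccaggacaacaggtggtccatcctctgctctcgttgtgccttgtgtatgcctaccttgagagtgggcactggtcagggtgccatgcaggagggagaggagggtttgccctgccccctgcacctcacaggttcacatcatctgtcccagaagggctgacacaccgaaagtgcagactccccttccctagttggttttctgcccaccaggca

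In the C3 window the capitals mark TTGCGAAA, a match to the C/EBP motif TTGCNNAA at -45 to -38 from the start, and 3 matches to the NF-kB-like motif GGGANNNNCC, at -197 to -188, at -33 to -24 and at -10 to -1. In the C1s1 window the capitals mark a match to the C/EBP motif on the other strand, at -242 to -235. A second annotated start of C1s1, whose window overlaps this one, has an NF-kB-like match at -35 to -26. The Cfd and C1ra windows held no match to any of the 6 motifs, which were searched on both strands. Of 32851 promoter windows of the same length, 9.56% held the C/EBP motif and 17.63% the NF-kB-like one. The other motifs, which no member's window held, were GATA as AGATAA (9.99% of windows) or TGATAA (7.94%), STAT as TTCNNNGAA (7.02%) and the interferon element GAAANNGAAA (2.98%). A match describes letters only, and the data hold no measurement of binding.

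Summed over the 8 genes, complement RNA was 74.6 and 77.2 CPM in lung, 47.9 and 45.9 CPM in cardiac and 318 and 280 CPM in tail tip (Ad-GFP before Ad-Cre). C3 made up 64.5% and 63.6% of the members' reads in lung and 63.4% and 56.8% in tail tip. In the cardiac libraries C3 held 10.8% and 30.3%, and Serping1 held 67.9% and 54.4%. The cardiac libraries thus had the lowest sum, and their leading gene was the inhibitor of C1 in place of the central component.

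**Figure D1:**
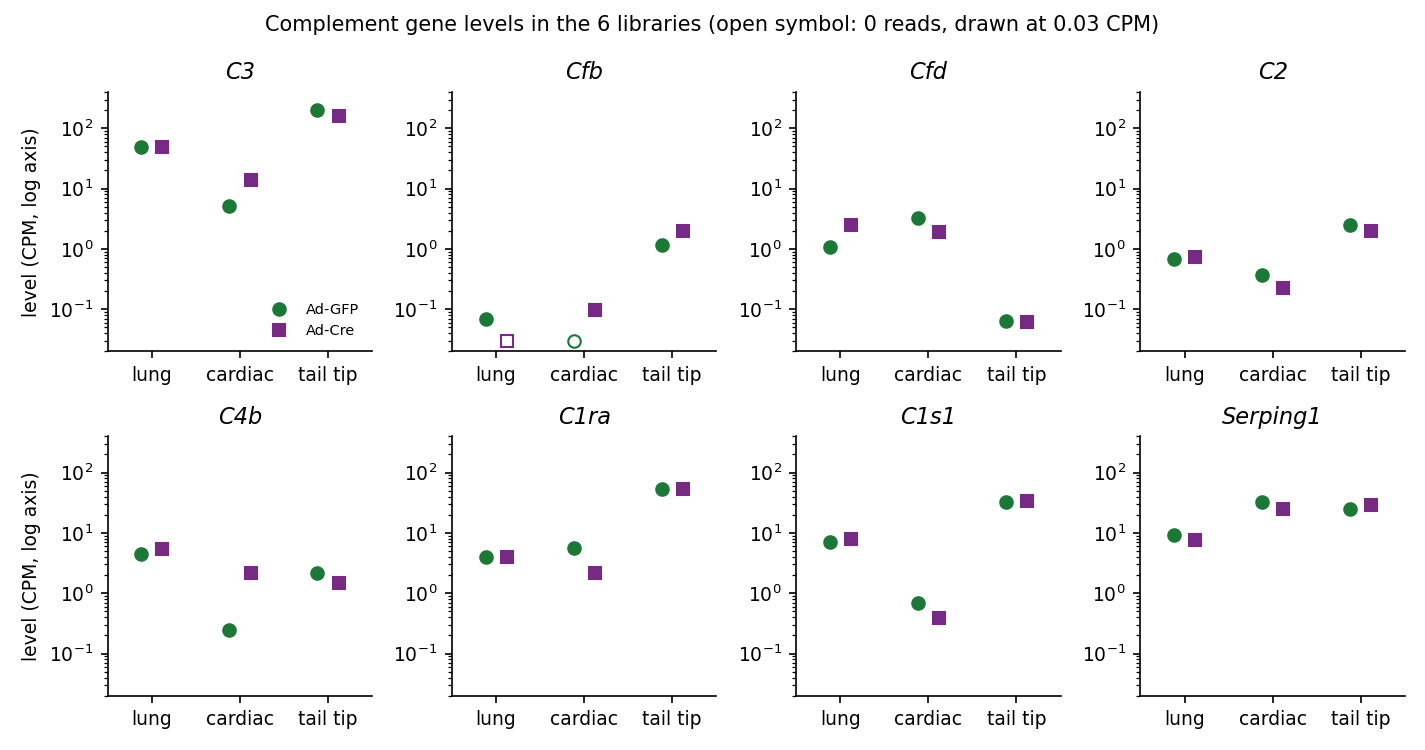
Level of each of the 8 complement genes in CPM on a log axis, by origin, with circles for Ad-GFP and squares for Ad-Cre. Each point is 1 library, and open symbols are libraries with 0 reads. C3 ran from 5.19 to 202 CPM, and Cfd, unlike the others, was lowest in both tail tip libraries.

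Origins were compared in edgeR's quasi-likelihood test, in a single additive model fitted to the 6 libraries, with terms for origin and virus, with Benjamini-Hochberg adjustment over the 18143 genes and a threshold of 0.05. The 2 libraries of an origin, which differ in virus, stand in for replicates, and nothing states that they came from separate cultures. The p-values rest on the spread left after the origin and virus terms, with 2 residual degrees of freedom, moderated by that of other genes. They are not known to hold a spread between cultures or animals. The comparisons share libraries in pairs and are not independent of each other. In tail tip against lung 7 of the 8 genes passed, 6 of them higher and 1 lower, where 50.6% of all tested genes passed (28.2% higher and 22.3% lower). In tail tip against cardiac 6 passed, 5 higher and 1 lower, where 33.5% of all genes passed (18.0% higher and 15.5% lower). In cardiac against lung 3 passed, 1 higher and 2 lower, where 38.4% of all genes passed (20.8% higher and 17.6% lower). The members' median log2 fold change was 1.79 for tail tip against lung, 3.36 for tail tip against cardiac and -0.67 for cardiac against lung, against 0.06, 0.06 and -0.01 over all tested genes. The libraries of the origins compared did not overlap for all 8 members in tail tip against lung, for 6 in tail tip against cardiac and for 5 in cardiac against lung, where 84.7%, 70.6% and 70.3% of all tested genes did not. With each library left out in turn, the number of members that passed ranged from 4 to 8 for tail tip against lung, from 4 to 7 for tail tip against cardiac and from 2 to 5 for cardiac against lung. Cfb reached the count minimum only through its tail tip libraries, so its tail tip differences follow in part from the filter.

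**Figure D2:**
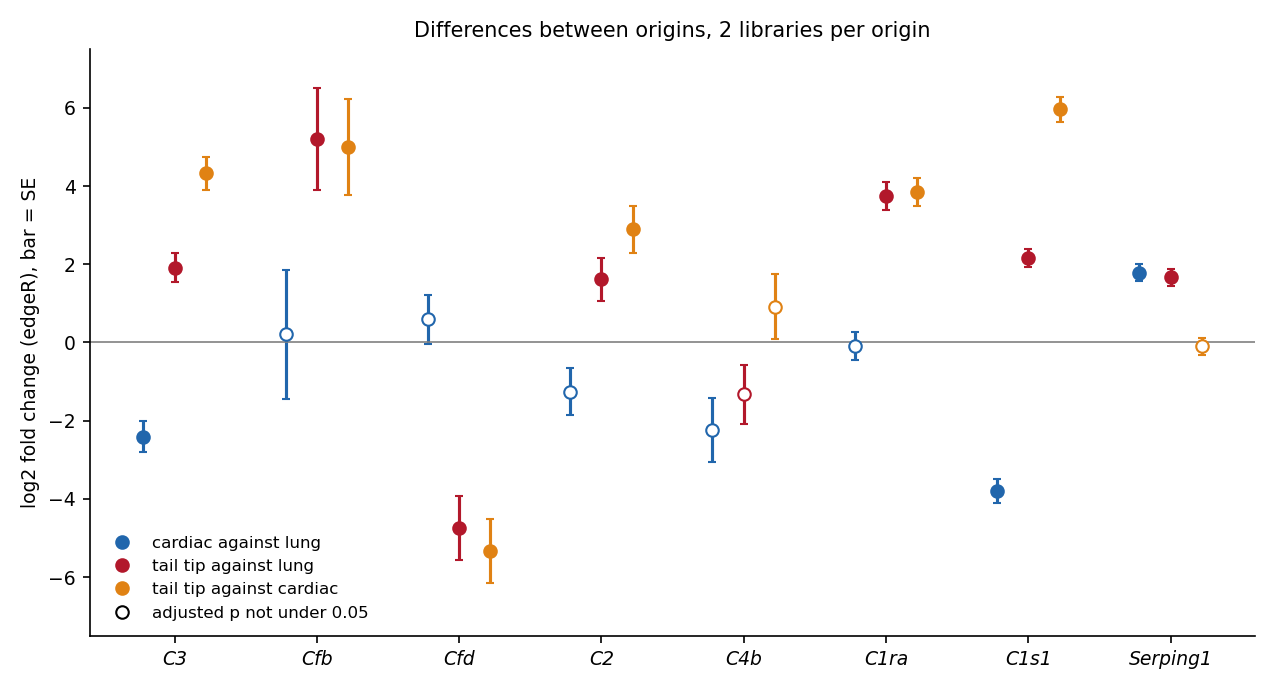
Log2 fold change of each complement gene between origins in the edgeR model, with bars of 1 SE, in blue for cardiac against lung, in red for tail tip against lung and in orange for tail tip against cardiac. Filled points passed an adjusted p of 0.05. Cfd is the only gene with both tail tip differences below 0 and filled.

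The proteases of the C1 complex were higher in tail tip than in both other origins. C1ra, which encodes C1r (ENSMUSG00000055172), was at 3.98 and 3.93 CPM in lung, 5.65 and 2.16 CPM in cardiac and 53.0 and 53.0 CPM in tail tip (Ad-GFP before Ad-Cre, as in all such series below). The tail tip libraries had the same level and stood above the other 4, whose ranges overlapped. C1ra was higher in tail tip than in lung by a log2 fold change of 3.75 ± 0.36 (SE; 13.5-fold, edgeR adjusted p = 0.000171) and than in cardiac by 3.84 ± 0.36 (14.3-fold, adjusted p = 0.000311). Cardiac and lung differed by -0.08 ± 0.36 (adjusted p = 0.874). That comparison depended on the virus, with a log2 ratio of 0.50 between the Ad-GFP libraries and -0.85 between those labelled Ad-Cre, and without the cardiac Ad-GFP library C1ra passed as lower in cardiac (-0.91, adjusted p = 0.00292).

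C1s1, which encodes C1s (ENSMUSG00000038521), was at 7.10 and 7.91 CPM in lung, 0.676 and 0.393 CPM in cardiac and 33.0 and 34.0 CPM in tail tip. The 3 origins did not overlap, and cardiac held 22 and 12 reads. This was the steepest gradient among the 8: tail tip was 62.0-fold above cardiac (log2 5.96 ± 0.31, edgeR adjusted p = 3.32e-05) and 4.46-fold above lung (2.16 ± 0.24, adjusted p = 0.000348), and cardiac was 13.9-fold below lung (-3.80 ± 0.30, adjusted p = 0.000146). C1r and C1s act together in C1, and both genes passed as higher in tail tip than in lung and cardiac, while C1s1 alone of the pair passed in cardiac against lung. In the cardiac Ad-GFP library C1ra was at 1.90 CPM per kilobase of exon and C1s1 at 0.216, whereas in lung C1s1 was the higher, at 2.27 against 1.33 in the Ad-GFP library.

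C1ra, C1s1 and their relatives C1rl, C1rb and C1s2 lie within 143.0 kb of chromosome 6, among 7 annotated genes (GENCODE, GRCm38). C1rl, a C1r-like protease gene that shares no 50-base word with the others, had 2.5 and 2.69 CPM in lung, 2.79 and 1.37 CPM in cardiac and 18.5 and 18.9 CPM in tail tip. It passed as higher in tail tip than in lung (log2 2.85 ± 0.34, edgeR adjusted p = 0.000485) and than in cardiac (3.20 ± 0.35, adjusted p = 0.000608). C1rb and C1s2 are near copies: 50.8% of the 50-base words of C1ra occur also in C1rb, and 21.8% of those of C1s1 in C1s2, so how reads were divided between copies is uncertain. C1ra took 98.9% or more of the reads of its pair in 5 libraries and 84.6% (exact 95% interval 74.7 to 91.8) in the cardiac library labelled Ad-Cre. C1s1 took 97.0% or more of its pair in lung and tail tip, but in cardiac 75.9% (56.5 to 89.7) and 57.1% (34.0 to 78.2).

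C4b and C2 encode the substrates of C1s. C4b (ENSMUSG00000073418) was at 4.42 and 5.41 CPM in lung, 0.246 and 2.19 CPM in cardiac and 2.20 and 1.48 CPM in tail tip. The lung libraries were the highest, and the cardiac pair, with 8 and 67 reads, spanned a wider range than the tail tip pair. No comparison of C4b passed: the log2 fold change was -2.24 ± 0.81 for cardiac against lung (edgeR adjusted p = 0.0647), -1.33 ± 0.76 for tail tip against lung (adjusted p = 0.185) and 0.91 ± 0.83 for tail tip against cardiac (adjusted p = 0.438). The call depended on the libraries and the tool. Without the cardiac Ad-GFP library C4b passed as lower in cardiac than in lung (-1.16, adjusted p = 0.0159) and as lower in tail tip than in lung (-1.42, adjusted p = 2.88e-05). Without the cardiac library labelled Ad-Cre it passed in all 3 comparisons, at -4.35, -1.44 and 2.91 (adjusted p = 7.96e-13, 2.58e-05 and 4.14e-06). DESeq2, limma-voom and edgeR without the filter also placed cardiac below lung (adjusted p = 0.0154, 0.0245 and 3.78e-05). Tail tip was below lung in limma-voom (adjusted p = 0.00692), without the filter (0.0197) and without the cardiac pair (-1.44, adjusted p = 0.000211). Leaving out a tail tip library also brought C4b past the threshold in cardiac against lung, at -2.58 without Ad-GFP (adjusted p = 0.000793) and -2.57 without Ad-Cre (adjusted p = 0.000599), and in tail tip against lung without the tail tip Ad-GFP library (-2.58, adjusted p = 0.0171).

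C4a, a close relative of C4b, had 34 to 86 reads in every library and no called difference. C4b made up 76.3% and 78.1% of the reads of the pair in lung, 14.5% and 66.3% in cardiac and 48.6% and 36.3% in tail tip. Of the 50-base words of C4b, 34.6% occur also in C4a. The share in the cardiac Ad-GFP library (exact 95% interval 6.5 to 26.7) lay below the intervals of the other 5.

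C2 (ENSMUSG00000024371) was low throughout, at 0.686 and 0.740 CPM in lung, 0.369 and 0.229 CPM in cardiac and 2.45 and 1.99 CPM in tail tip, from 7 to 78 reads. Its order of origins, tail tip over lung over cardiac, was that of C3 and C1s1, without overlap. Tail tip was 3.08-fold above lung (log2 1.62 ± 0.55, edgeR adjusted p = 0.0442) and 7.39-fold above cardiac (2.89 ± 0.59, adjusted p = 0.00971), and cardiac against lung did not pass (-1.26 ± 0.60, adjusted p = 0.139). The difference from lung was lost in DESeq2 (adjusted p = 0.0968) and without any one library of either origin, with adjusted p of 0.338 and 0.154 without the lung Ad-GFP and Ad-Cre libraries and 0.370 and 0.347 without the tail tip ones. The difference from cardiac was lost without the tail tip Ad-GFP library (adjusted p = 0.123) or the one labelled Ad-Cre (adjusted p = 0.0733).

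C3 (ENSMUSG00000024164), the component on which all arms meet, was the most abundant member in lung and tail tip. Its level was 48.1 and 49.1 CPM in lung, 5.19 and 13.9 CPM in cardiac and 202 and 159 CPM in tail tip. The origins did not overlap, and the cardiac pair was the least alike. Tail tip was 20.0-fold above cardiac (log2 4.33 ± 0.42, edgeR adjusted p = 0.000338) and 3.77-fold above lung (1.91 ± 0.37, adjusted p = 0.00432), and cardiac was 5.32-fold below lung (-2.41 ± 0.39, adjusted p = 0.00324). The size of the cardiac differences depended on the library: cardiac against lung was -1.76 without the cardiac Ad-GFP library and -3.30 without the one labelled Ad-Cre, and tail tip against cardiac 3.66 and 5.18. Without the lung Ad-GFP library the adjusted p was 0.256 for cardiac against lung, 0.278 for tail tip against lung and 0.0806 for tail tip against cardiac. Without the lung library labelled Ad-Cre it was 0.236, 0.324 and 0.0816, with every log2 fold change in the same direction.

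The genes of the alternative arm, Cfb and Cfd, went opposite ways. Cfb (ENSMUSG00000090231), which encodes factor B, had 2 and 0 reads in lung, 0 and 3 reads in cardiac and 37 and 67 reads in tail tip, where its level was 1.16 and 2.02 CPM. It was at or under the floor of 3 counts in all 4 lung and cardiac libraries and over it in both tail tip libraries. The ratio of summed counts was 43.9 against lung (95% interval 11.9 to 367, counting error only) and 33.7 against cardiac (11.2 to 166). Both differences passed, with log2 fold changes of 5.20 ± 1.30 (edgeR adjusted p = 0.0133) and 4.99 ± 1.23 (adjusted p = 0.0199). Cfb was tested only because its tail tip counts were high, so these tail tip differences were in part set by the filter. The difference from lung missed the threshold without the lung library labelled Ad-Cre (adjusted p = 0.0654), the tail tip Ad-GFP library (adjusted p = 0.0638) or the tail tip library labelled Ad-Cre (adjusted p = 0.104), and without the last the difference from cardiac did too (adjusted p = 0.335). Without the lung Ad-GFP library the log2 fold change over lung was 9.27, and over cardiac it was 4.23 without the cardiac Ad-GFP library and 8.30 without the one labelled Ad-Cre.

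Cfd (ENSMUSG00000061780), which encodes the protease factor D, also called adipsin for its abundance in fat cells, was at 1.06 and 2.53 CPM in lung, 3.26 and 1.93 CPM in cardiac and 0.0629 and 0.0604 CPM in tail tip. Both tail tip libraries held 2 reads, under the floor, and all lung and cardiac libraries held 31 to 106. The ratio of summed counts was 28.4-fold lower in tail tip than in lung (95% interval 10.7 to 106) and 42.4-fold lower than in cardiac (16.3 to 158). In the model Cfd fell by 4.74 ± 0.82 on the log2 scale against lung (edgeR adjusted p = 0.0026) and by 5.33 ± 0.82 against cardiac (adjusted p = 0.00286). Both calls held with each library left out, with log2 fold changes from -5.59 to -3.73 and from -6.27 to -4.38. Cardiac against lung did not pass (0.59 ± 0.62, adjusted p = 0.486), and its sign differed between the viruses, with a log2 ratio of 1.56 between the Ad-GFP libraries and -0.38 between those labelled Ad-Cre. Without the cardiac library labelled Ad-Cre it passed at 1.52 (adjusted p = 0.0181). Of the adipocyte markers, Lep had no read in any library and Adipoq and Plin1 were at 0.0 to 0.215 CPM, but other markers of the list were not low. Of 9 adipocyte markers 4 were tested, and 3 of them passed as higher in tail tip than in lung and than in cardiac: Lpl (450 and 339 CPM in tail tip), Cebpa (56.5 and 42.5 CPM) and Fabp4 (10.9 and 6.85 CPM). The list summed to 521 and 391 CPM in tail tip, where Cfd was lowest, and most of that was Lpl. It summed to 114 and 107 CPM in cardiac and to 11.1 and 13.7 CPM in lung. Pparg, the other tested marker, lay between 2.32 and 5 CPM and passed in no origin comparison. Cidec and Retn were at most 0.36 CPM in any library. The part of the list in the Cfd values was not tested.

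Serping1 (ENSMUSG00000023224), the gene of C1 inhibitor, was at 9.16 and 7.59 CPM in lung, 32.6 and 25.0 CPM in cardiac and 24.5 and 28.5 CPM in tail tip. Cardiac and tail tip overlapped and stood above both lung libraries. It was higher than in lung in cardiac (log2 1.78 ± 0.22, 3.42-fold, edgeR adjusted p = 0.000945) and in tail tip (1.67 ± 0.22, 3.19-fold, adjusted p = 0.000656), and the 2 did not differ beyond their spread (-0.10 ± 0.21, adjusted p = 0.734). Serping1 was the only member that passed as higher in cardiac than in lung, where its target C1s1 passed as lower. Per kilobase of exon, Serping1 was at 3.94 CPM beside 2.27 for C1s1 in the lung Ad-GFP library, and at 14.0 beside 0.216 in the cardiac Ad-GFP library. Both calls held with each library left out, with log2 fold changes from 1.53 to 1.96 for cardiac and 1.39 to 1.95 for tail tip.

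Levels of different genes were compared per kilobase of annotated exon. In lung C3 was the highest member, at 9.35 and 9.54 CPM per kilobase, followed by Serping1 at 3.94 and 3.27. In tail tip C3 was again the highest at 39.2 and 31.0, followed by C1ra at 17.8 and 17.8, and then Serping1 (10.5 and 12.3) and C1s1 (10.5 and 10.9), which did not differ in the Ad-GFP library. In cardiac Serping1 was the highest at 14.0 and 10.7. The next places there depended on the library, with Cfd at 3.53, C1ra at 1.90 and C3 at 1.01 in Ad-GFP, and C3 at 2.70, Cfd at 2.09 and C1ra at 0.724 in the library labelled Ad-Cre. On this scale Cfb had the lowest value per kilobase in all lung and cardiac libraries, and Cfd in tail tip (0.0682 and 0.0655).

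C2 and Cfb are neighbours, within 169.9 kb of chromosome 17 that also holds C4b and C4a, and an annotated read-through gene on the same strand (Gm20547) spans both. It shares 79.5% of the exon bases of Cfb and 42.8% of those of C2, and it had 0 reads in all 6 libraries. How reads that fall in 2 genes were treated is not given in the sources used here, so the counts of C2 and Cfb may leave out shared bases. If only the unshared bases were counted, the level in the tail tip Ad-GFP library would be 2.01 CPM per kilobase for Cfb in place of 0.412, and 1.11 for C2 in place of 0.633. In the cardiac library labelled Ad-Cre, Cfb (0.169, from 3 reads) would then no longer be the lowest, with C1s1 at 0.125 and C2 at 0.103. Comparisons between libraries use the same bases in each. Zbtb12, on the opposite strand with 155 to 378 reads per library, shares 4.2% of the exon bases of C2, and as the strand setting is not known, its reads there cannot be told apart from those of C2. The antisense gene Gm16567 shares 18.4% of the exon bases of C1s1 and had 0 reads.

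Across the 6 libraries the members fell into different patterns. The measure of likeness was the root mean square difference of log2 CPM, each gene centred on its own mean, where 0 is an identical pattern. The closest pairs were Cfb with C1ra (0.87), C3 with C1s1 (0.89), C2 with C1ra (0.92) and C2 with C3 (0.94). The most distant were Cfd and C1s1 (4.19), and Cfd was at 2.36 or more from every member. Among all tested genes of at least 10 CPM, the nearest to C3 were Stac2 (0.345) and Zfhx4 (0.380). C1s1 was nearest to Dkk3 (0.320) and Serpinf1 (0.379), which encode secreted proteins, and C1ra to Apol9b (0.289) and Slfn2 (0.318). The nearest genes to C2 were Socs3 (0.163), a feedback inhibitor of cytokine signalling, and Nlgn2 (0.232). Cfb was nearest to Nfatc4 (0.356) and Samd9l (0.428), Cfd to Wwc1 (0.389) and Fosb (0.464), C4b to Jade2 (0.480) and Mbnl3 (0.584), and Serping1 to Itgb5 (0.132) and Cdc42ep2 (0.139). These distances rest on 6 libraries of which each origin gives 2, and they describe likeness only.

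The macrophage markers moved with the tail tip values. Of the 14, 13 passed as higher in tail tip than in lung, 12 as higher than in cardiac and 11 as higher in cardiac than in lung, with none lower. Adgre1, which encodes F4/80, was at 0.103 and 0.0 CPM in lung, 31.6 and 23.9 CPM in cardiac and 426 and 388 CPM in tail tip. All 14 were over the floor in cardiac and tail tip and 9 in lung. Their part in the tail tip values of C3, C2, Cfb, C1ra and C1s1 was not tested. In lung, where the summed markers were 31.0 and 22.2 CPM, C3 was at 48.1 and 49.1 CPM and C1s1 at 7.10 and 7.91 CPM. In cardiac, where the sum was 1060 and 639 CPM, both were lower, at 5.19 and 13.9 CPM for C3 and 0.676 and 0.393 CPM for C1s1. Serping1 and the macrophage sum were both higher in cardiac and in tail tip than in lung, and its part there was not tested either. Of the other cell types, the mesothelial list summed to 156 and 197 CPM in lung and 62.9 and 135 CPM in cardiac. In tail tip it summed to 7.42 and 9.33 CPM. The lung sum was mostly Msln, at 153 and 193 CPM. Of 7 tested mesothelial genes, 5 passed as higher in cardiac than in lung and 1 as lower. The endothelial list summed to 7.37 to 29.5 CPM, and the hepatocyte list, the main source of the circulating proteins, to at most 0.614 CPM.

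**Figure D3:**
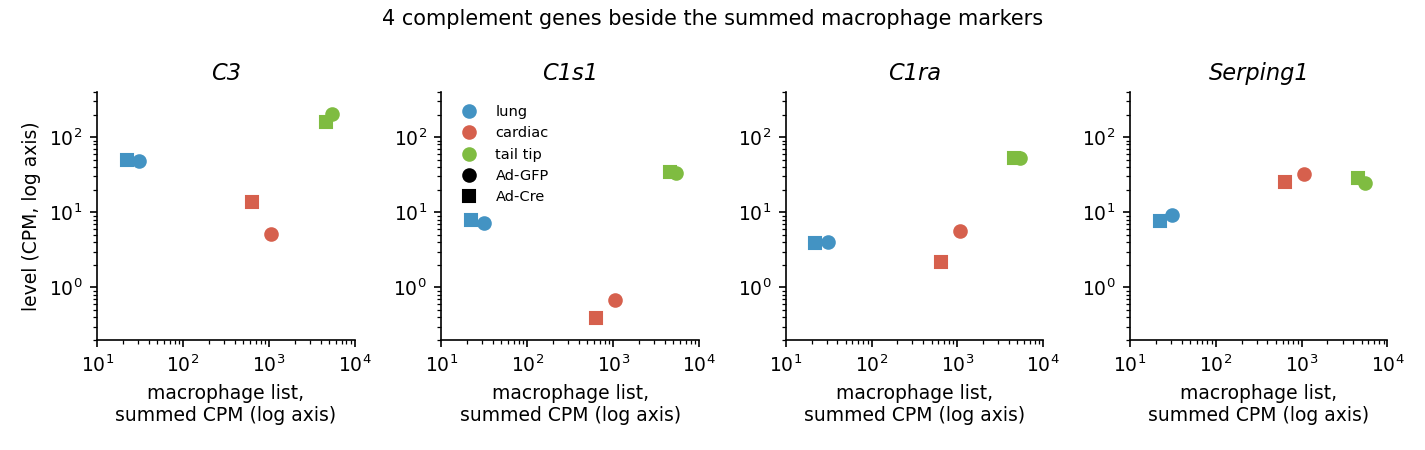
Level of C3, C1s1, C1ra and Serping1 (vertical log axis, CPM) beside the summed level of 14 macrophage markers (horizontal log axis, CPM), 1 point per library, coloured by origin, with circles for Ad-GFP and squares for Ad-Cre. C3 and C1s1 were lower in cardiac, with marker sums of 639 and 1060 CPM, than in lung, with 22.2 and 31.0 CPM.

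The rest of the pathway was read from lists of 47 genes, of which 42 had a read and 29 were tested. In cardiac against lung 16 passed as higher and 3 as lower, in tail tip against lung 17 and 4, and in tail tip against cardiac 15 and 3, with median log2 fold changes of 2.69, 3.09 and 1.37. The lists hold macrophage genes, so these counts move with the marker sums above. The 3 C1q chains, the recognition part of C1 that was left out of the member set, passed as higher than in lung in both other origins. C1qb, for example, was at 0.0 and 0.0 CPM in lung, 29.6 and 13.9 CPM in cardiac and 43.7 and 40.9 CPM in tail tip. Lung thus held transcripts of C1r and C1s with C1qa and C1qb at 0 reads and C1qc at 1 read or fewer.

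In the lectin arm 5 genes were tested, and 1 passed in each direction in cardiac against lung, 2 higher and 1 lower in tail tip against lung, and 3 higher and 1 lower in tail tip against cardiac. Masp1, which encodes the lectin pathway's relative of C1r and C1s, was at 130 and 143 CPM in lung, 17.1 and 18.7 CPM in cardiac and 103 and 120 CPM in tail tip. Like C1s1 it was lower in cardiac than in lung (log2 -2.93 ± 0.15, edgeR adjusted p = 2.81e-05) and higher in tail tip than in cardiac (2.64 ± 0.15, adjusted p = 4.3e-05), but tail tip against lung did not pass (-0.29 ± 0.14, adjusted p = 0.125). Colec12, a scavenger receptor of the collectin family, was higher in tail tip (431 and 403 CPM) than in lung (205 and 175 CPM) and cardiac (169 and 136 CPM). Fcna, a ficolin gene, was at 0.103 and 0.0389 CPM in lung, 1.81 and 1.21 CPM in cardiac and 4.62 and 3.65 CPM in tail tip, and passed in all 3 comparisons.

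Of 5 tested soluble regulators, 3 passed as higher in cardiac than in lung. Clu, which encodes clusterin, an inhibitor of the terminal complex, was at 6.82 and 6.50 CPM in lung, 54.5 and 37.1 CPM in cardiac and 2.04 and 1.75 CPM in tail tip and passed in all 3 comparisons. Serping1 and Clu, both genes of fluid-phase inhibitors, were thus higher in cardiac than in lung, while C3 and C1s1 were lower. This contrast covers these genes only. The 3 C1q chains and Fcna also passed as higher in cardiac than in lung, and C2, C4b, Cfb, Cfd and C1ra passed in neither direction. Cfp, which encodes properdin, the stabiliser of the alternative arm, was at 5.14 and 5.18 CPM in lung, 17.4 and 5.43 CPM in cardiac and 39.9 and 39.1 CPM in tail tip, and passed as higher in tail tip than in lung (2.94 ± 0.42, adjusted p = 0.00111) and cardiac (1.93 ± 0.41, adjusted p = 0.011).

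Membrane regulators, which shield cells from complement, passed as higher in 4 of 6 tested genes in each of the 3 comparisons, with none lower. Over all tested genes 20.8% (cardiac against lung), 28.2% (tail tip against lung) and 18.0% (tail tip against cardiac) did. Cd55, Cd59a and Cd59b passed in all 3, with Cr1l added against lung and Csmd1 in tail tip against cardiac. Csmd1, with 32 and 19 reads in tail tip, reached the count minimum only there, so its call was in part set by the filter. Cd55, the decay accelerator, was at 3.43 and 2.34 CPM in lung, 17.9 and 19.9 CPM in cardiac and 44.5 and 64.4 CPM in tail tip. Cd59a, which blocks the terminal complex, was at 3.98 and 3.93 CPM in lung, 10.5 and 9.16 CPM in cardiac and 24.9 and 26.1 CPM in tail tip. Cr1l, which encodes the rodent regulator Crry, was at 38.8 and 32.1 CPM in lung, 66.7 and 51.4 CPM in cardiac and 58.0 and 58.3 CPM in tail tip, higher than lung in both. Cd46 lay between 1.21 and 1.71 CPM in all libraries.

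Of 7 tested receptors, 5 passed as higher than lung in cardiac and in tail tip and 2 as lower. C3ar1, the receptor of the C3a fragment, was at 2.43 and 1.32 CPM in lung, 25.8 and 25.0 CPM in cardiac and 140 and 118 CPM in tail tip. Itgb2, which encodes a chain of the leukocyte receptors for cleaved C3, was at 0.960 and 2.10 CPM in lung, 33.8 and 22.1 CPM in cardiac and 243 and 194 CPM in tail tip. C1qbp, a mitochondrial protein that also binds C1q, went the other way, with 181 and 159 CPM in lung, 114 and 83.6 CPM in cardiac and 79.1 and 66.1 CPM in tail tip. Of the terminal components, C6, C8a, C8b and C9 had 3 reads or fewer in each library, and 3 were tested (Hc, C7 and C8g). C8g, which encodes a chain of C8, was at 1.06 and 1.29 CPM in lung, 0.553 and 0.785 CPM in cardiac and 2.14 and 1.72 CPM in tail tip and passed in no origin comparison. C7 passed in tail tip against lung, at 0.754 and 0.664 CPM in tail tip and 0.0343 and 0.0 CPM in lung. Like Cfb, C7 reached the count minimum only through its tail tip libraries, so this call was in part set by the filter. The gene of C5 was counted as Hc, its mouse symbol.

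Genes of the signals that are known to induce complement were also read, with Nfkbia, which encodes an inhibitor of NF-kB, among them. Of 17 tested, 12 passed as higher and 2 as lower in tail tip against both lung and cardiac. Over all tested genes, 28.2% and 18.0% passed as higher there and 22.3% and 15.5% as lower. The 2 lower genes were Il6 and Lif in both comparisons. Il6, which encodes interleukin 6, was at 11.3 and 6.31 CPM in lung, 17.5 and 10.6 CPM in cardiac and 4.59 and 3.98 CPM in tail tip. Lif was at 137 and 117 CPM in lung, 60 and 85.1 CPM in cardiac and 10.7 and 8.45 CPM in tail tip. In cardiac against lung 6 passed as higher and 4 as lower, where 20.8% and 17.6% of all tested genes did. The 4 with the highest mean level were Stat3, Nfkb1, Rela and Nfkbiz. Stat3, which carries interleukin 6 signals, was at 105 and 113 CPM in lung, 205 and 144 CPM in cardiac and 317 and 308 CPM in tail tip, higher in tail tip than in lung by 1.52 ± 0.19 (edgeR adjusted p = 0.000519). Nfkb1 was lower in cardiac (89.7 and 78.0 CPM) than in lung (151 and 150 CPM), with tail tip at 129 and 122 CPM. Rela and Nfkbiz, at 83.9 to 112 CPM and 55.1 to 135 CPM, passed in no origin comparison. Il1b, which encodes interleukin 1 beta, had the largest difference of the list, with 10.7 and 9.90 CPM in tail tip against at most 0.0389 CPM in lung (log2 8.93 ± 1.13, adjusted p = 0.000597). Like Cfb, Il1b reached the count minimum only through its tail tip libraries, so this difference was in part set by the filter. The same holds for Ifnb1, which passed as higher in both tail tip comparisons. It had 16 and 15 reads in tail tip and 0 in every lung and cardiac library. All 5 tested acute phase genes passed as higher in tail tip than in both lung and cardiac. Saa3, a serum amyloid gene, was at 4.36 and 9.74 CPM in lung, 1.07 and 0.687 CPM in cardiac and 269 and 435 CPM in tail tip. Like C3 and C1s1, Saa3 passed as lower in cardiac than in lung (-2.88 ± 0.38, adjusted p = 0.00133), whereas Ptx3 (2.95 and 3.23 CPM in lung, 35.2 and 15.3 CPM in cardiac) and Serpina3n (0.171 and 0.117 CPM in lung, 35.0 and 25.1 CPM in cardiac) passed as higher there.

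The virus was compared over the 3 origins in the same model. None of the 8 genes passed (edgeR, 0 of 18143 genes over all), none had an unadjusted p under 0.05, where 367 of all tested genes did, and DESeq2 and limma-voom called none of them either. The log2 fold changes of Ad-Cre against Ad-GFP ran from -0.42 ± 0.28 for C1ra to 0.73 ± 0.66 for C4b, with a median of 0.07 against 0.00 over all genes. The lowest adjusted p among the members was 0.9996. Serping1, with -0.14 ± 0.17, and C1s1, with -0.05 ± 0.21, had the smallest errors. The error was larger than the change itself for these and for C2 (-0.26 ± 0.46), Cfb (0.71 ± 1.03) and Cfd (0.18 ± 0.58), so a p that misses the threshold does not show that levels were the same.

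Within an origin each virus had 1 library, so ratios are given with an exact 95% interval for counting error alone and no test was made. In lung 2 of the 8 members were at least 2-fold apart, 1 in each direction, where 7.69% of all tested genes were (4.87% higher and 2.82% lower). The lower one was Cfb, whose 2 and 0 reads are under the floor and were read as no difference. The higher one was Cfd, with 31 reads (1.06 CPM) in Ad-GFP and 65 reads (2.53 CPM) in the library labelled Ad-Cre, which gives 2.38 (1.53 to 3.78). The other lung ratios ran from 0.829 (0.686 to 1.00) for Serping1 to 1.22 (0.956 to 1.57) for C4b, and C3 was at 1.02 (0.945 to 1.10). In tail tip no member was 2-fold apart, where 3.10% of all genes were (1.53% higher and 1.58% lower). There C3 was at 0.790 (0.761 to 0.819), C4b at 0.672 (0.457 to 0.982), Serping1 at 1.16 (1.06 to 1.28), Cfb at 1.74 (1.15 to 2.67, from 37 and 67 reads) and C2 at 0.813 (0.576 to 1.14), and C1ra and C1s1 had intervals of 0.935 to 1.07 and 0.945 to 1.12.

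The cardiac pair differed most, as it did over all genes, 20.3% of which were at least 2-fold apart (11.3% higher and 9.07% lower). Of the 8 members 4 were, 3 higher and 1 lower. C3 had 169 reads (5.19 CPM) in Ad-GFP and 425 reads (13.9 CPM) in the library labelled Ad-Cre, which gives 2.68 (2.24 to 3.22). C4b had 8 and 67 reads (0.246 and 2.19 CPM), a ratio of 8.92 (4.28 to 21.5). C1ra went down, from 184 to 66 reads (5.65 to 2.16 CPM), a ratio of 0.382 (0.284 to 0.509). Below a 2-fold difference, Cfd was at 0.593 (0.424 to 0.823), C1s1 at 0.581 (0.262 to 1.23), C2 at 0.621 (0.207 to 1.71) and Serping1 at 0.767 (0.698 to 0.842). Cfb, the fourth, had 0 and 3 reads, at or under the floor, and was read as no difference. C3 and C4b thus stood higher and the C1 protease C1ra lower in the same library.

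Other lists moved in this pair too. The 29 tested pathway genes had 8 at least 2-fold lower and 1 higher in the cardiac library labelled Ad-Cre, among them the 3 C1q chains, all lower, such as C1qc at 24.8 and 8.01 CPM. The macrophage sum went from 1060 to 639 CPM and the fibroblast sum from 23100 to 14600 CPM. The mesothelial sum went from 62.9 to 135 CPM and the epithelial sum from 2.83 to 46.5 CPM, with all 8 epithelial markers over the floor in the library labelled Ad-Cre and 3 in Ad-GFP. The sum of 4 genes listed as tail markers went from 0.154 to 4.06 CPM, against 68.5 and 65.8 CPM in tail tip. Of these, Hoxc13 had 0 and 81 reads, Hoxd13 5 and 38, Hoxa13 0 and 5 and Hoxb13 0 and 0. Hoxd13 had 1 read in each tail tip library, whereas Hoxb13 was at 12.1 and 13.6 CPM there. The sum of 4 heart markers went from 869 to 578 CPM. The part of these markers in the C3, C4b and C1ra ratios was not tested. With 1 library of each kind the virus and the library cannot be told apart.

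**Figure D4:**
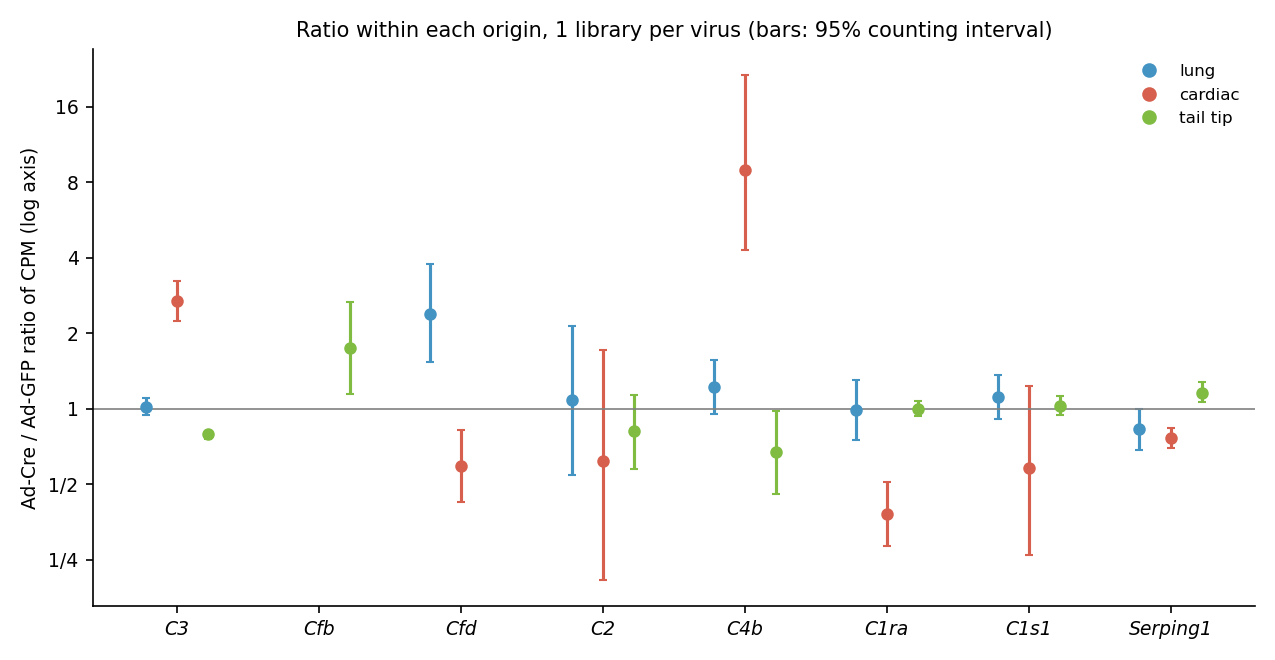
Ratio of CPM of the library labelled Ad-Cre over the Ad-GFP library within each origin (log axis) for each complement gene, with exact 95% intervals for counting error, in blue for lung, red for cardiac and green for tail tip. Genes with 3 or fewer reads in both libraries of an origin are not drawn. C3 and C4b in cardiac lie above 2 and C1ra in cardiac below 0.5.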

How the data were processed

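The deposited table holds whole-number read counts per Ensembl gene for the 6 libraries, which the authors did not normalise, as the totals of 26170316 to 33779069 show. Per the submitters' processing notes, STAR 2.0.7 and the mm39 build were used, in roles not stated. No source used here gives the counter, annotation, strand setting or read length, so reads of overlapping, antisense or near-identical genes may be mixed. The labels' matrix title names another subject, so columns were matched to libraries by column name. Symbols, exon lengths and overlaps came from GENCODE on GRCm38, which matched 51884 of 57180 identifiers, and promoters from RefSeq (GRCm38.p6).

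The members and lists were chosen with earlier results of these data known. Genes were filtered with filterByExpr (minimum count 10) and scaled with TMM factors (0.964 to 1.026). They were tested with edgeR 4.0.16 (R 4.3.3) in a robust quasi-likelihood fit of origin and virus, with residual degrees of freedom of 2, prior degrees of 5.12 (median) and common dispersion 0.0455, two-sided, after a test on simulated data. Standard errors are the log2 fold change divided by the square root of F. Within-origin ratios have exact conditional binomial 95% intervals, which, like the floors, cover counting error only, since reads without molecular identifiers are not independent molecules. A 2-fold difference within an origin and likeness between genes used log2 CPM with a prior count of 2. Motifs were searched in windows of 250 bases.

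The text names the 8 members, pathway genes whose mean reached 1 CPM, the paralogues, up to 4 genes of highest mean level and the largest passing difference of the inducer, acute phase, adipocyte and macrophage lists, the 2 nearest genes per member and Gata4, and not every gene so taken is printed. Genes named outside that rule were chosen after their values were seen. Alternatives were DESeq2 1.42.0, limma-voom 3.58.1, DESeq2 size factors, no TMM factors, no filter, models without the block, other prior counts and gene lengths, each library left out and, added after seeing the data, tail tip against lung without the cardiac pair and lengths without read-through bases.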

Additional observations from a re-analysis of the deposited data

Results flagged for a closer look

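Within an origin, the level in the library labelled Ad-Cre over that in Ad-GFP went in opposite directions in 2 origins for 4 complement genes, with counting intervals on opposite sides of 1. With 1 library per virus in each origin, none of these differences was tested. C3 was at 2.68 (95% interval 2.24 to 3.22) in cardiac and 0.790 (0.761 to 0.819) in tail tip. C4b was at 8.92 (4.28 to 21.5) in cardiac and 0.672 (0.457 to 0.982) in tail tip. Cfd was at 2.38 (1.53 to 3.78) in lung and 0.593 (0.424 to 0.823) in cardiac. Serping1 was at 0.767 (0.698 to 0.842) in cardiac and 1.16 (1.06 to 1.28) in tail tip. The cardiac pair enters all 4.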

How the results depend on the processing

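The directions of the called origin differences were the same under every setting run. Calls lost or gained are given with each gene above, and the numbers of members that passed with each library left out ranged from 2 to 5 (cardiac against lung), from 4 to 8 (tail tip against lung) and from 4 to 7 (tail tip against cardiac). The model compares origins with virus as the block and viruses with origin as the block, and replicate numbers pair nothing, since each group has 1 library. Without that replicate block, 3, 7 and 6 members passed between origins and 0 between viruses, as with it. Where a library left out leaves an origin with 1, the fit assumes that the lone library varies like the others. Uncalled origin differences changed sign with a library left out, in ranges of log2 fold change from -0.35 to 1.52 (Cfd), -3.05 to 4.08 (Cfb) and -0.91 to 0.52 (C1ra) for cardiac against lung, and -0.26 to 2.91 (C4b) and -0.35 to 0.20 (Serping1) for tail tip against cardiac.

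The uncalled virus differences ranged, with each library left out, from -0.60 to 1.09 (Cfd), -0.18 to 0.69 (C3), -0.12 to 1.51 (C4b), -0.19 to 0.10 (C1s1) and -0.33 to 0.01 (Serping1). They also changed sign in limma-voom for C3 (-0.18), C4b (-0.06), C1s1 (0.05) and Serping1 (0.08), without the block for C3 (-0.20) and C1s1 (0.05), and without the cardiac pair for C3 (-0.16), C4b (-0.10) and C1s1 (0.09). The cause was not tested. The virus call count over all genes was 141 with no filter, 4 in DESeq2, 3 without the cardiac pair and 11 to 109 with a library left out, against 0. All genes called in tail tip against cardiac were 3110 and 3338 without a tail tip library and 9205 without the cardiac library labelled Ad-Cre, against 6077, and in tail tip against lung 5995 without the tail tip Ad-GFP library, against 9175. Levels per kilobase in the tail tip Ad-GFP library moved with the length used, to 0.928 (C2), 11.2 (C1s1) and 13.8 (Serping1) with the longest transcript and to 1.11 (C2) and 2.01 (Cfb) with unshared bases. Depth limits Cfb outside tail tip and Cfd in tail tip, at 3 reads or fewer per library.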
